A study of Mus musculus with 2 samples.

Results

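Caveolin and connexin genes were followed in cultured primary mouse brain pericytes (PCs). The 8 genes are *Cav1*, *Cav2* and *Cav3*, which encode the caveolins, and *Gja1*, *Gja4*, *Gjc1*, *Gjb2* and *Gjb6*, which encode connexins. They were chosen by symbol from the 31053 genes listed in each library, and all 8 were listed. Levels and shares of cells were read in cells with more than 1000 genes and under 20% of counts from mitochondrial genes.

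PCs are mural cells that sit on the outside of capillaries. The cells came from brains of wild-type female C57BL/6N mice of 6 to 8 weeks, with 6 mice pooled per isolation, and no allele or agent was added. They were freed with papain, grown on collagen in an endothelial growth medium for the first passages and then in a pericyte medium. A culture at passage 5 (PC5) and a culture at passage 20 (PC20) each gave 1 library of droplet 3′ single cell RNA-seq, which counts unique molecular identifiers (UMIs), tags of single captured RNA molecules. The study's methods name a separate isolation for each passage, while the deposited design speaks of a single isolation, so by the methods passage and isolation cannot be told apart. Adult and embryonic PCs, which the study also describes, were not analysed here.

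Caveolae are flask-shaped pits of the plasma membrane. Caveolins insert into the inner leaflet of the membrane, cavins form a coat over them, and EHD, pacsin and dynamin proteins act at the neck of the pit. Endothelial and mural cells of many, but not all, vessels are known to be rich in caveolae, which buffer membrane tension and carry signalling receptors. Connexins assemble into hemichannels that dock between neighbouring cells as gap junctions and let ions and small molecules pass. In vessels they couple mural cells to each other and to the endothelium.

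The kept cells numbered 9950 in PC5 and 4749 in PC20 and held 223054273 and 191122251 UMIs. The median cell had 21700 UMIs in PC5 and 33424 in PC20. Another 679 PC5 and 135 PC20 barcodes were left out, and 20 kept barcodes were found in both libraries. A level is given as CPM, the UMIs of a gene summed over the kept cells per 1000000 UMIs. Each molecule is tagged at its 3′ end, so CPM was not divided by gene length, and genes may still differ in how well they are captured. Differences are given as the log2 ratio of CPM in PC5 to CPM in PC20, positive where PC5 was higher. Values in parentheses are exact 95% limits (Poisson for CPM, conditional binomial for log2 ratios and Clopper-Pearson for shares) that cover counting error alone. Each passage has 1 library, so no difference could be checked in a replicate and none was tested.

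The label of the cells was compared with marker genes. Of 7 pericyte markers, 2 (*Pdgfrb* and *Cspg4*) had a UMI in at least 10% of cells of a library, and the summed level of the list was 54.0 CPM in PC5 and 8.53 CPM in PC20. *Rgs5*, *Kcnj8* and *Vtn* had 405, 13 and 20 UMIs in PC5 and 0 in PC20, and *Abcc9* had 1 UMI in each. *Anpep* went the other way, with 1.93 CPM in PC5 against 3.00 CPM in PC20 (log2 ratio -0.63, -0.82 to -0.45). Summed levels in PC5 and PC20 were 283 and 49.6 CPM for 4 smooth muscle markers, 1302 and 101 CPM for 4 fibroblast markers, 201 and 74.1 CPM for 8 endothelial markers and 157 and 233 CPM for 6 astrocyte markers. Within the smooth muscle list, *Tagln* had 219.5 and 0.230 CPM and *Acta2* 62.85 and 49.16 CPM. *Myh11* and *Cnn1* were under 1 CPM in both libraries. Of the fibroblast markers, *Col3a1* had 1158 and 100.8 CPM. *Pdgfra* had 88.58 and 0.131 CPM, *Dcn* 51.26 and 0.167 CPM, and *Lum* 3.57 CPM in PC5 and 0 UMIs in PC20.

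Endothelial and astrocyte markers were also uneven within their lists. Of the 8 endothelial markers, 3 had a UMI in at least 10% of cells of a library. *Cdh5*, the cadherin of endothelial junctions, was at 168 CPM in PC5, with a UMI in 73.2% of cells, and had 5 UMIs in PC20. The VEGF receptor gene *Kdr* was at 12.8 CPM in PC5 and had 13 UMIs in PC20, while the other receptor gene *Flt1* was higher in PC20, at 17.6 and 73.9 CPM. The other endothelial markers were low, with 369 and 0 UMIs of *Emcn*, 121 and 21 of *Pecam1*, 37 and 3 of *Tek*, 14 and 8 of *Cldn5*, and 1 and 0 of *Erg*. Of the 6 astrocyte markers, 3 were found as widely. The bicarbonate transporter gene *Slc4a4* had 143.5 CPM in PC5 against 228.5 CPM in PC20, *Slc1a3* 5.18 and 4.51 CPM, and *Aldh1l1* 7.35 CPM in PC5 with 5 UMIs in PC20. *Slc1a2* had 169 and 14 UMIs, *Gfap* 97 and 0, and *Aqp4* 28 and 1. Lists for microglia, oligodendrocytes and striated muscle summed to under 1 CPM in both libraries. These lists moved beside the genes described here, and their part in the results was not tested.

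*Cav1* (ENSMUSG00000007655) encodes the main structural protein of caveolae outside striated muscle. It lies on the plus strand of mouse chromosome 6 from 17306335 to 17341452 (GRCm38, GENCODE annotation). *Cav2* (ENSMUSG00000000058), whose protein joins *Cav1* in mixed oligomers, lies on the same strand from 17281185 to 17289115. The end of *Cav2* is 17219 bases before the start of *Cav1*, with no annotated gene wholly between. An antisense gene, *Gm15581*, overlaps both and thus spans the stretch between them. It had 2 UMIs in PC5 and 1 in PC20. *Cav3* (ENSMUSG00000062694), the caveolin of striated muscle, lies farther along chromosome 6, from 112459505 to 112472872.

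*Gja1* (ENSMUSG00000050953), which encodes the widely used Cx43 protein, lies on the plus strand of chromosome 10 from 56377330 to 56402513. *Gja4* (ENSMUSG00000050234), which encodes the vascular Cx37, lies on the minus strand of chromosome 4 from 127311421 to 127314039. *Gjc1* (ENSMUSG00000034520), for Cx45 of smooth muscle and conducting cells, lies on the minus strand of chromosome 11 from 102799579 to 102819700. *Gjb2* (ENSMUSG00000046352) and *Gjb6* (ENSMUSG00000040055), for Cx26 and Cx30, lie on the minus strand of chromosome 14 from 57098600 to 57104702 and from 57123303 to 57133611. In the brain, Cx30 is best known from astrocytes and Cx26 from astrocytes and the meninges.

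Promoter sequence from RefSeq (GRCm38.p6) was at hand for 7 of the 8 genes. The 250 bases before the first listed start are shown for 4 of them, the neighbours *Cav1* and *Cav2*, whose levels took different courses, and *Gja1* and *Gja4*, the most abundant connexin gene and the one that differed most between the libraries. Capitals mark matches, on either strand, to the GC box with the letters GGGCGG, to the TATA box with the letters TATAAA, to the CCAAT box, named by its letters, or to the site of the factor AP-1 with the letters TGANTCA.
Cav1, chr6:17306085-17306334, plus strand: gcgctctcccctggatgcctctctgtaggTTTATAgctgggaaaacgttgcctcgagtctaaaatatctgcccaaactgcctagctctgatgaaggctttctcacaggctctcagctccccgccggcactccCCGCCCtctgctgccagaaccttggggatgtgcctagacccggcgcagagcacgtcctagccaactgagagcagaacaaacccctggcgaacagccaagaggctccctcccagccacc
Cav2, chr6:17280935-17281184, plus strand: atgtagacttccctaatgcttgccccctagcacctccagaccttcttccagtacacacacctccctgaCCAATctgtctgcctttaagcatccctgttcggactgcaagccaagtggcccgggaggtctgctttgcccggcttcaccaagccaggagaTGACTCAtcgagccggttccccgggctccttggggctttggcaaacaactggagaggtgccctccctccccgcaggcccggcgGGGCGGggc
Gja1, chr10:56377050-56377299, plus strand: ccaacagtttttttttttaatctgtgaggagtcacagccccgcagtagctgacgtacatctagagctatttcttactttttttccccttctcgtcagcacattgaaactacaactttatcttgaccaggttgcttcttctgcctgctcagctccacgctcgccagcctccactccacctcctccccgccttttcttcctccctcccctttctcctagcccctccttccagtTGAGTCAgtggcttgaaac
Gja4, chr4:127314040-127314289, minus strand: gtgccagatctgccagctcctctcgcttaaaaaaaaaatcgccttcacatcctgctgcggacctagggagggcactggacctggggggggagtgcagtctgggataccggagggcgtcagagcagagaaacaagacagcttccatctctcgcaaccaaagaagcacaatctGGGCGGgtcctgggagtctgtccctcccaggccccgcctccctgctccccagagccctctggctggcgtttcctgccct
The *Cav1* window held 1 match to the GC box and 1 to the TATA box, both on the opposite strand. The TATA match lies near the upstream end of that window, far from the start. All marked stretches are matches of letters, and whether they act in these cells was not tested. The *Cav2* window held 1 GC box, 1 CCAAT box and 1 AP-1 site. The *Gja1* window held 1 AP-1 site and the *Gja4* window 1 GC box. For *Gja1* the RefSeq start is 56377300, upstream of the GENCODE start of 56377330. Alone among the 4, its sequence just past the RefSeq start was not found in a GENCODE transcript. No window of these 4 had an E-box (CACGTG) or a CArG box, the motif of serum response factor. Of the 32851 promoters of the same length, 32.7% held a GC box, 12.4% a TATA box, 33.8% a CCAAT box, 6.75% an AP-1 site, 6.02% an E-box and 1.47% a CArG box. The motifs do not overlap one another in these windows. The antisense gene *Gm15581* overlaps the *Cav1* and *Cav2* windows. G and C made up 59.6% of the *Cav1*, 62.0% of the *Cav2*, 50% of the *Gja1* and 61.2% of the *Gja4* window, against a median of 52.4% over all promoters.

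*Cav1* and *Gja1* were the most abundant of the 8 genes in both libraries. *Cav1* was close in level between the passages, *Cav2* was higher in PC20, *Gja1* was somewhat higher in PC5, and *Gjc1* and *Gja4* were much lower in PC20. *Cav3*, *Gjb2* and *Gjb6* were at or near 0. Counted as expressed where a UMI was found in at least 10% of cells of either library, 4 of the 8 genes were expressed, *Cav1*, *Cav2*, *Gja1* and *Gjc1*. Of these, 1 (*Gjc1*) had a log2 ratio above 1 and 1 (*Cav2*) a log2 ratio below -1. Over all 10504 expressed genes, 37.0% lay past a log2 ratio of 1 in size, 17.9% above 1 and 19.1% below -1, so 2 of 4 genes is not far from what genes in general did. With a log2FC that adds a pseudocount of 1 to means over cells of UMIs scaled to 10000, 0 of the 4 genes and 2.77% of expressed genes passed the same limit (1.4% above and 1.37% below).

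**Figure D1:**
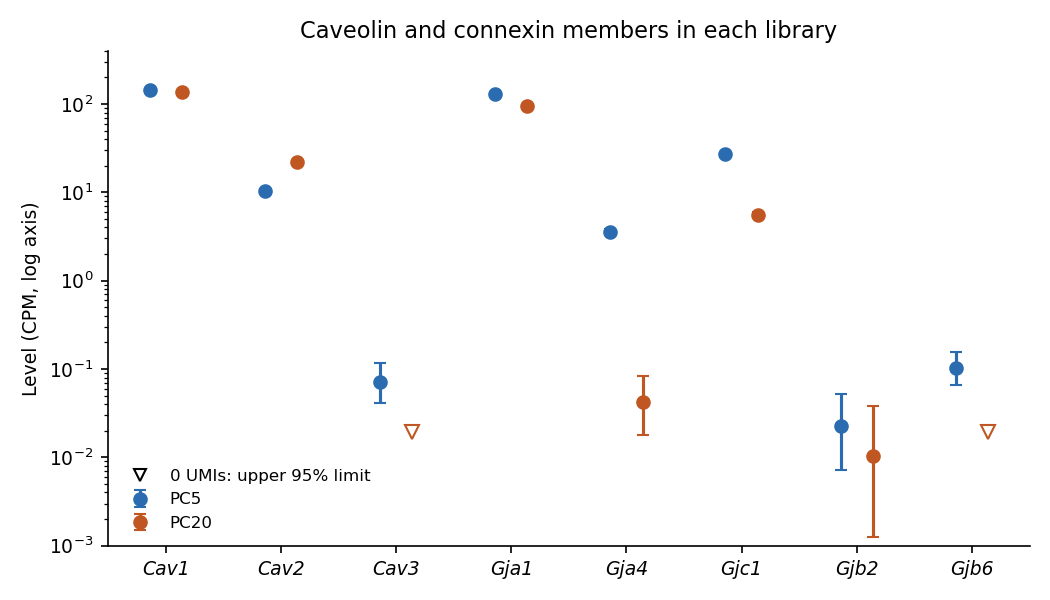
Level of the 8 caveolin and connexin genes in the PC5 (blue) and PC20 (orange) libraries in CPM on a log axis, with exact 95% Poisson limits as bars and open triangles at the upper limit where a library held 0 UMIs. *Cav1* lies at 144 and 135 CPM, *Gja4* at 3.54 and 0.0419 CPM, and *Cav3* and *Gjb6* have 0 UMIs in PC20.

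*Cav1* had 32173 UMIs in PC5 and 25885 in PC20. PC5 cells held it at 144 CPM (143 to 146) and PC20 cells at 135 CPM (134 to 137), so that the log2 ratio was 0.09 (0.07 to 0.11). The level thus differed little between the libraries, although the interval excludes 0. Among PC5 cells 76.1% had a *Cav1* UMI, and among PC20 cells 90.6%. PC20 cells held more UMIs, so a random draw of 10500 UMIs per cell was also made, which kept 8847 PC5 and 4474 PC20 cells and dropped 1103 and 275 shallower cells. At that depth the shares were 63.9% (62.8 to 64.9) and 68.7% (67.4 to 70.1), so most of the gap in shares went with depth. In PC5 the share with a *Cav1* UMI went from 54.2% in the lowest to 93.3% in the highest of 4 depth classes of like size, while the level went from 131 to 155 CPM.

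*Cav2* had 2316 UMIs in PC5 and 4252 in PC20. PC5 cells held it at 10.4 CPM (9.97 to 10.8) and PC20 cells at 22.2 CPM (21.6 to 22.9), 2.14-fold higher in PC20, with a log2 ratio of -1.10 (-1.17 to -1.03). The share of cells with a *Cav2* UMI was 19.2% in PC5 and 50.6% in PC20, and at the common depth 10.1% (9.52 to 10.8) and 19.9% (18.7 to 21.1). The direction was the same on each scale. The log2 ratio lay close to the limit of -1 used here, at -1.01 in thinned cells.

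*Cav3* had 16 UMIs, each in a different cell, in PC5 and 0 in PC20. With PC20 set to 3 UMIs it was 4.57-fold higher in PC5, which leaves out the counting error of the 16 UMIs. Its limits were 0.0410 to 0.117 CPM in PC5 and up to 0.0193 CPM in PC20. Its share of cells was 0.161% in PC5, and the 0 of 4749 cells in PC20 allows up to 0.0632% by the limit of 3 cells of the total (0.0777% by the two-sided exact limit). As a measure of background, the highest share of 4 striated muscle markers (*Ckm*, *Myod1*, *Myog* and *Actn2*) was 0.0101% in PC5 and 0.0211% in PC20, at median depths of 21700 and 33424 UMIs. *Cav3* was thus barely detected in PC5 and not detectable at this depth in PC20. No cell type that should lack the other genes could be set apart in these cultures.

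Of all caveolin UMIs, *Cav1* made up 93.2% in PC5 and 85.9% in PC20, and *Cav2* 6.71% (6.45 to 6.98) and 14.1% (13.7 to 14.5). There were 13.9 *Cav1* UMIs for each *Cav2* UMI in PC5 and 6.09 in PC20. Summed, the caveolins made 155 CPM in PC5 and 158 CPM in PC20, so the family's sum was nearly level while its makeup was not.

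The proteins that build and shape the caveola were read from a list of 14 coat and neck genes. In 13 of them a UMI was found in at least 10% of cells of a library, and of these 5 had a log2 ratio above 1, 2 a ratio below -1 and 6 a ratio between. Over all expressed genes 17.9% lay above 1 and 19.1% below -1. Their median log2 ratio was 0.07, against -0.03 over all expressed genes. Split by role, the coat and the neck both held genes on either side.

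*Cavin1*, whose protein is required for caveolae to form, was at 359 CPM (356 to 361) for PC5 against 122 CPM (120 to 123) for PC20, with a log2 ratio of 1.56 (1.54 to 1.58). At the common depth its UMIs were found in 96.3% of PC5 and 68.6% of PC20 cells. *Cavin2*, which helps to bend the membrane, was lower in PC5 at 173 CPM than in PC20 at 300.4 CPM, with a log2 ratio of -0.80 (-0.82 to -0.78). *Cavin2* was the most abundant cavin gene in PC20 and *Cavin1* in PC5. *Cavin3*, an adaptor of the coat, had 87.1 CPM in PC5 against 138 CPM in PC20, with a log2 ratio of -0.66. *Cavin4*, the cavin of striated muscle, had 57 UMIs in PC5 and 984 in PC20, where it was found in 15.9% of cells. At the common depth it was found in 0.305% of PC5 and 5.30% of PC20 cells. Its level was 0.256 and 5.15 CPM, 20.1-fold higher in PC20, with a log2 ratio of -4.33 (-4.74 to -3.95). The striated muscle markers had at most 1 UMI in each library, so *Cavin4* was found without them.

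Of all cavin UMIs, *Cavin1* made up 57.9% in PC5 and 21.5% in PC20, *Cavin2* 27.9% and 53.1%, *Cavin3* 14.1% and 24.4%, and *Cavin4* 0.0413% and 0.911%. The cavins together stood at 619 and 565 CPM. *Cav1* had 0.402 UMIs for each *Cavin1* UMI in PC5 and 1.11 in PC20.

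**Figure D2:**
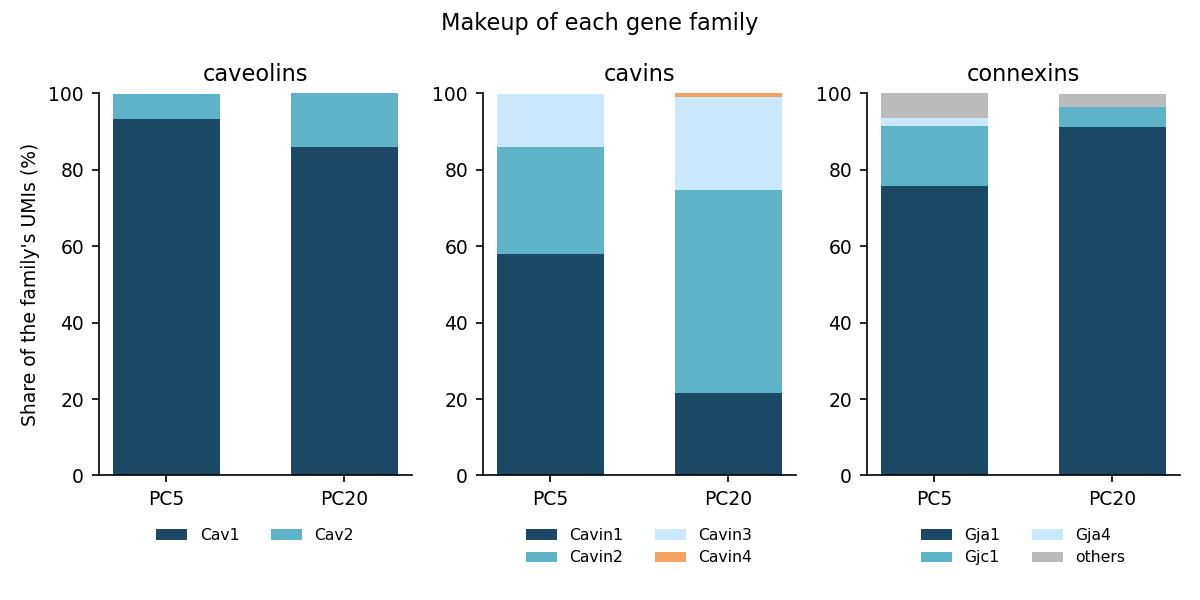
Share of the UMIs of the caveolin (left), cavin (middle) and connexin (right) families held by each gene, in % of the family's UMIs, as stacked bars for the PC5 and PC20 libraries. *Cavin1* goes from 57.9% to 21.5% of cavin UMIs, and *Gja1* from 75.9% to 91.1% of connexin UMIs.

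Among the genes of the caveola neck, *Ehd2*, whose ATPase holds caveolae at the surface, had 127 CPM in PC5 against 47.4 CPM in PC20, with a log2 ratio of 1.42 (1.39 to 1.46). Its relative *Ehd4* went the other way, with 18.6 and 55.5 CPM and a log2 ratio of -1.58, and *Ehd1* was nearly level at 84.7 and 80.1 CPM. *Ehd3* had 5.33 CPM in PC5 against 0.267 CPM in PC20, with a log2 ratio of 4.32 that moved to 5.67 in thinned cells, where few PC20 cells were left with a UMI. The EHD family thus held genes higher in PC5, level, and higher in PC20. *Pacsin2*, which binds curved membrane, had 40.3 and 76.1 CPM (log2 ratio -0.92), and *Pacsin3* 11.1 and 10.5 CPM (log2 ratio 0.07, -0.01 to 0.16). *Dnm2*, the general dynamin that severs membrane necks, had 36.7 and 49.1 CPM (log2 ratio -0.42), and *Dnm1*, best known from neurons, 11.7 and 2.60 CPM (log2 ratio 2.16). *Ror1*, a receptor described as a scaffold of caveolae, had 11.9 and 0.853 CPM (log2 ratio 3.81).

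The flotillins mark membrane domains other than caveolae and served as a comparison. *Flot1* had a log2 ratio of 0.37, *Flot2* of 0.79 and the related *Stom* of -0.74. Of the 3, 0 passed 1 in size, against 37.0% of expressed genes, and so few genes cannot be told apart from that share.

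*Gja1* had 29224 UMIs in PC5 and 18148 in PC20. PC5 cells held it at 131 CPM (130 to 132) and PC20 cells at 94.95 CPM (93.6 to 96.3), 1.38-fold higher in PC5, and the log2 ratio was 0.46 (0.44 to 0.49). The share of cells with a *Gja1* UMI was 81.8% in PC5 and 82.0% in PC20, and at the common depth 67.1% (66.1 to 68.1) and 54.4% (53.0 to 55.9). The equal shares before thinning thus came with unequal depth. Over the 4 depth classes, the level of *Gja1* lay between 118 and 147 CPM in PC5 and between 81.9 and 102 CPM in PC20, so the classes of the 2 libraries did not overlap.

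*Gjc1* had 6045 UMIs in PC5 and 1066 in PC20. PC5 cells held it at 27.1 CPM (26.4 to 27.8) and PC20 cells at 5.58 CPM (5.25 to 5.92), 4.86-fold higher in PC5, and the log2 ratio was 2.28 (2.19 to 2.38). At the common depth the share of cells with a *Gjc1* UMI was 22.0% (21.2 to 22.9) in PC5 and 5.68% (5.02 to 6.40) in PC20. Before thinning it was 37.9% and 17.7%. Over the 4 depth classes its level lay between 19.5 and 29.8 CPM in PC5 and between 3.98 and 6.52 CPM in PC20. Of the 8 genes it had the largest difference among those expressed.

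*Gja4* had 790 UMIs in 701 PC5 cells and 8 UMIs in 8 PC20 cells. That is 3.54 CPM (3.30 to 3.80) against 0.0419 CPM (0.0181 to 0.0825), with a log2 ratio of 6.40 (5.42 to 7.62). The central 95% of expressed genes lay between log2 ratios of -3.37 and 4.72. *Gja4* was not among the expressed genes, having a UMI in 7.05% of PC5 cells, and it thus lay outside a range to which it did not contribute. In PC20 its share of cells was 0.168% (0.0728 to 0.332). The highest striated muscle share there, 0.0211% (0.000533 to 0.117), rests on 1 *Ckm* UMI, and the limits overlap. Overlap of separate limits does not decide whether *Gja4* lay above background in PC20, and this was not tested. Of the endothelial markers there, *Emcn* and *Erg* had 0 UMIs, *Tek* 3 and *Cdh5* 5. *Cldn5* had 8 like *Gja4*, and *Kdr* had 13, *Pecam1* 21 and *Flt1* 14115. At the common depth *Gja4* was seen in 3.85% of PC5 and 0.0447% of PC20 cells.

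*Gjb6* had 23 UMIs in 17 PC5 cells, with up to 6 in a cell, and 0 UMIs in PC20. With PC20 set to 3 UMIs it was 6.57-fold higher in PC5, which leaves out the counting error of the 23 UMIs. *Gjb2* had 5 UMIs in PC5 against 2 in PC20, for which the log2 ratio is 1.10 (-1.51 to 4.49), so no difference was detectable at this depth. Because Cx30 and Cx26 are known from astrocytes, the PC5 cells with a UMI of *Gfap* or *Aqp4* were set apart, a split chosen after the counts were seen. These 25 cells, 0.251% of PC5 cells, held 0 of the *Gjb6*, 0 of the *Gjb2* and 0 of the *Cav3* UMIs. With so few cells and UMIs, 0 would be likely even for genes unrelated to the split. The split thus cannot show where these UMIs came from, and their source was not tested.

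In order of level, PC5 had *Cav1*, *Gja1*, *Gjc1*, *Cav2* and *Gja4*, each above the limits of the next, and then *Gjb6* (0.103 CPM, 0.0654 to 0.155), *Cav3* (0.0717 CPM, 0.0410 to 0.117) and *Gjb2* (0.0224 CPM, 0.00728 to 0.0523), whose neighbours' limits overlapped. PC20 had *Cav1*, *Gja1*, *Cav2* and *Gjc1*, each above the limits of the next, and then *Gja4* and *Gjb2* (0.0105 CPM, 0.00127 to 0.0378) with overlapping limits. *Cav2* and *Gjc1* thus stood in opposite order in the libraries.

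The other connexin and pannexin genes were 18 in all. Of these, 1 was expressed, with a log2 ratio above 1, and 7 had 0 UMIs in both libraries. Over all expressed genes 17.9% lay above 1, and 1 gene says nothing about the list as a whole. In cells with no UMI of the proliferation markers *Mki67* or *Top2a*, 1 of the 18 was expressed, and its log2 ratio was not above 1. In those cells 1871 of 9946 expressed genes lay above 1. *Gjb5*, a connexin gene of epithelia and placenta that is named after its values were seen, had 87 UMIs in the PC5 library and 7 in the PC20 library, with a log2 ratio of 3.41 (2.31 to 4.77). Like *Gja4*, it was thus rare in PC5 and rarer in PC20.

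Of the UMIs of all 20 connexin genes, *Gja1* made up 75.9% (75.5 to 76.3) in PC5 and 91.1% (90.7 to 91.5) in PC20. The share of *Gjc1* was 15.7% in PC5 and 5.35% in PC20, and that of *Gja4* 2.05% and 0.0402%. Summed, the connexins made 173 CPM in PC5 and 104 CPM in PC20. The connexin RNA of the PC20 library was thus lower in sum and more nearly that of a single gene.

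**Figure D3:**
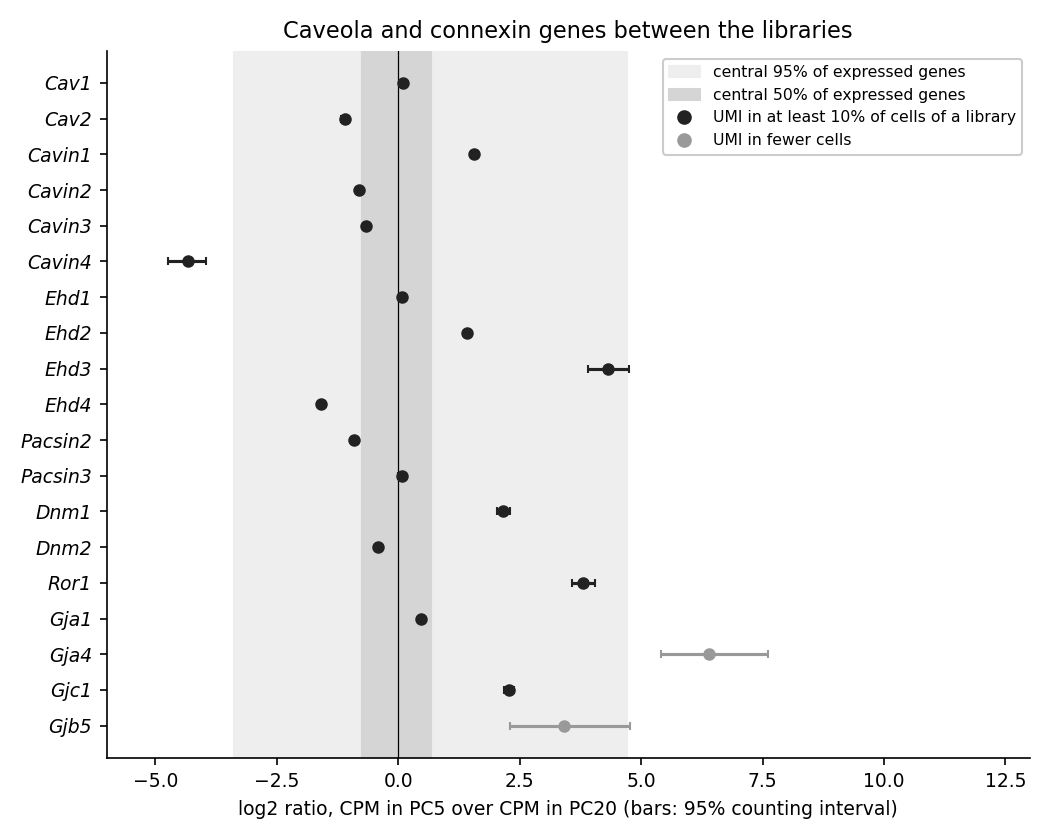
Log2 ratio of PC5 to PC20 levels (both in CPM) for caveola and connexin genes, with exact 95% limits as bars. Shaded bands hold the central 50% (-0.75 to 0.69) and the central 95% (-3.37 to 4.72) of expressed genes, and grey points are genes with a UMI in under 10% of cells of both libraries. *Cav1* lies near 0, *Cav2* at -1.10, *Gjc1* at 2.28 and *Gja4* at 6.40.

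Proteins that anchor gap junctions or lie beside them were taken from a list of 11 genes. In 8 of them a UMI was found in at least 10% of cells, of which 5 had a log2 ratio above 1 and 0 a ratio below -1, against 17.9% and 19.1% of expressed genes, with a median of 1.75. *Tjp1*, the scaffold ZO-1 that binds the tail of Cx43, had 195 CPM in PC5 against 78.5 CPM in PC20 (log2 ratio 1.31). *Cdh2*, N-cadherin of mural to endothelial contacts, had 230 and 50.4 CPM (log2 ratio 2.19). *Cdh5*, the endothelial cadherin, had 168 CPM in PC5 and 5 UMIs in PC20 (log2 ratio 12.65), and *Cdh11*, a mesenchymal cadherin, 10.3 and 0.539 CPM (log2 ratio 4.26). The cadherin genes of the list were thus all higher in PC5. *Dbn1*, whose protein drebrin links Cx43 to actin, had 80.1 and 13.8 CPM (log2 ratio 2.54), and the catenin genes *Ctnnb1* and *Ctnna1* had log2 ratios of 0.59 and 0.48.

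Spread between cells was read at the common depth of 10500 UMIs, as counts of UMIs per cell. The Fano factor, the variance over the mean, is 1 for counts that differ by sampling alone. *Cav1* had a Fano factor of 2.29 in PC5 and 1.44 in PC20. In PC5, 36.2% of cells had 0 *Cav1* UMIs, where a Poisson count of the same mean gives 22.5%, and 6.48% of cells had 5 or more. In PC20, 31.3% had 0, where a Poisson count gives 25.0%, and 3.40% had 5 or more. The top 10% of cells held 37.4% of *Cav1* UMIs in PC5 and 31.9% in PC20, so at nearly equal means *Cav1* was spread less evenly over the PC5 cells.

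*Gja1* had Fano factors of 1.64 in PC5 and 1.46 in PC20, and *Cavin2* of 3.01 and 2.16. *Cavin1*, at 1.31 and 1.25, was closer to sampling. For the rarer genes, *Cav2* had 1.14 and 1.03 and *Gjc1* 1.18 and 1.07, and at such low means sampling leaves little room for a spread to show.

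**Figure D4:**
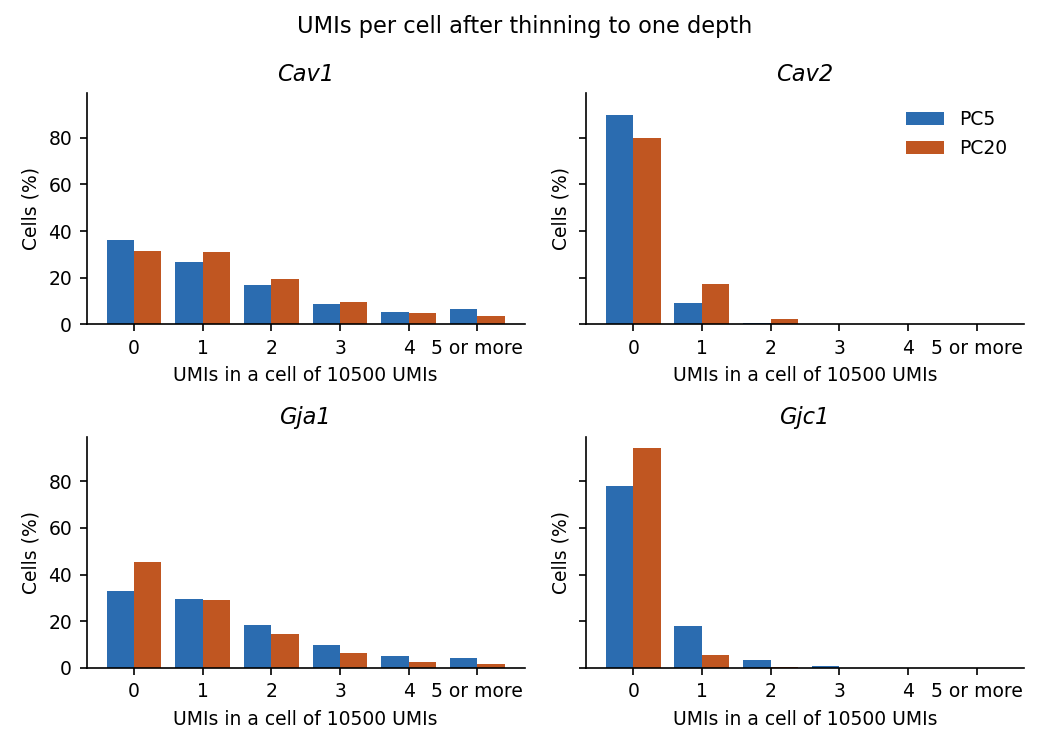
Share of cells (%) with 0, 1, 2, 3, 4 or 5 or more UMIs of *Cav1*, *Cav2*, *Gja1* and *Gjc1* in the PC5 (blue) and PC20 (orange) libraries after each cell was thinned to 10500 UMIs. For *Cav1*, 36.2% of PC5 and 31.3% of PC20 cells have 0 UMIs, and 6.48% and 3.40% have 5 or more.

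Cells with a UMI of *Mki67* or *Top2a* at the common depth numbered 3114 of 8847 in PC5 and 2586 of 4474 in PC20. *Gjc1* was at 35.8 CPM in the PC5 cells with such a UMI and at 20.4 CPM in those without, a log2 difference of 0.81 (0.70 to 0.93), and in PC20 at 6.89 and 4.19 CPM, with a log2 difference of 0.72 (0.34 to 1.11). *Gja1* stood at 144 and 130 CPM in PC5 and at 105 and 74.0 CPM in PC20, log2 differences of 0.15 (0.10 to 0.20) and 0.50 (0.41 to 0.59). Both connexin genes were thus higher in cells with a proliferation marker in both libraries. *Cav1* differed by 0.05 in PC5 and by -0.05 in PC20, and *Cav2* by 0.05 and 0.13 with intervals that span 0. These intervals count UMIs, and cells of 1 library are not replicates.

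Set against the other library within each class, *Gja1* had a log2 ratio of 0.46 (0.39 to 0.52) among cells with a proliferation marker and 0.81 (0.73 to 0.89) among cells without. For *Gjc1* the ratios were 2.38 and 2.28, for *Cav2* -1.03 and -0.95, and for *Cav1* 0.16 and 0.06. The share of cells with a marker was 35.2% in PC5 and 57.8% in PC20, so the classes weigh differently in the 2 libraries.

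**Figure D5:**
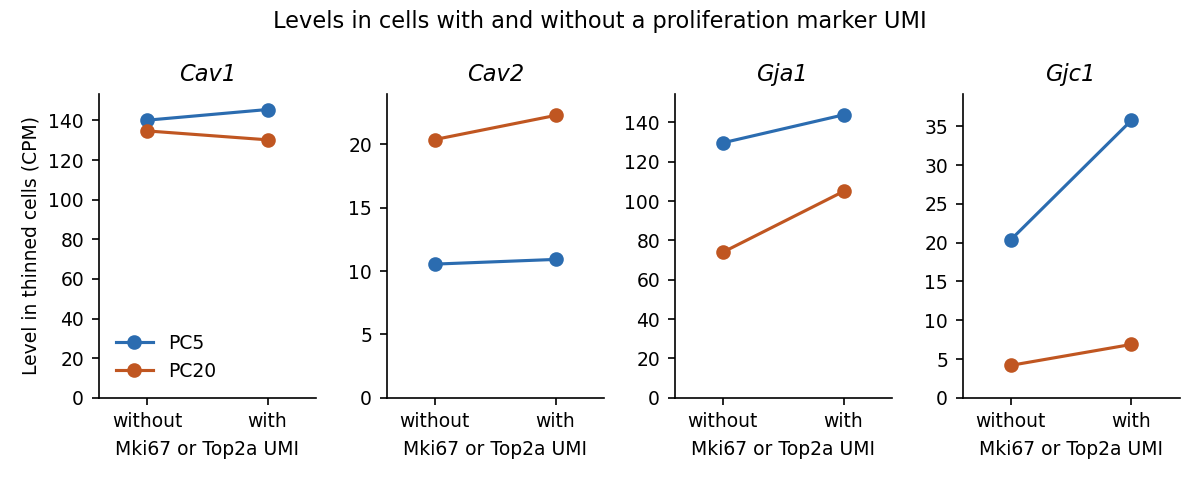
Level in CPM of *Cav1*, *Cav2*, *Gja1* and *Gjc1* in thinned cells without and with a UMI of *Mki67* or *Top2a*, in the PC5 (blue) and PC20 (orange) libraries, with axes that start at 0. *Gjc1* goes from 20.4 to 35.8 CPM in PC5 and *Gja1* from 74.0 to 105 CPM in PC20, while the *Cav1* lines are nearly flat.

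Contractile and pericyte markers split the cells in another way. *Cav1* stood at 159 CPM in PC5 cells with an *Acta2* UMI and at 135 CPM in those without, and at 168 and 124 CPM in PC20, log2 differences of 0.23 (0.18 to 0.29) and 0.44 (0.36 to 0.53). *Gja1* went the other way, by -0.18 in PC5 and -0.17 in PC20. Cells with a *Tagln* UMI, read in PC5 only since PC20 held 44 *Tagln* UMIs, gave a like pair of values, 0.33 for *Cav1* and -0.26 for *Gja1*. *Cav1* was thus higher, and *Gja1* lower, in cells with UMIs of these contractile genes.

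Of the pericyte markers, a *Pdgfrb* UMI went with a *Cav1* difference of 0.18 (0.12 to 0.23) in PC5 and 0.27 (0.12 to 0.42) in PC20. A *Cspg4* UMI, in 463 thinned PC5 cells, went with 0.30 for *Cav1* and 0.46 (0.09 to 0.81) for *Cav2*. The 135 thinned PC5 cells with an *Rgs5* UMI had 107 CPM of *Cav1* against 143 CPM in the others, a log2 difference of -0.42 (-0.66 to -0.19), and 164 against 134 CPM of *Gja1*, a difference of 0.29 (0.10 to 0.48). *Cavin2* differed by -0.97 in those cells. *Gja4* stood at 6.35 and 3.84 CPM there, from 9 UMIs in cells with *Rgs5*, with an interval of -0.41 to 1.67 that spans 0. The 2 markers *Cspg4* and *Rgs5* thus split *Cav1* in opposite directions.

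*Cav1* and *Cav2* were found together in 648 of 8847 PC5 cells, where 572.8 are given by their separate shares, a ratio of 1.13 (1.05 to 1.22). In PC20 they shared 648 of 4474 cells against 610.3, a ratio of 1.06 (0.98 to 1.15). Limits of these co-detection ratios are Poisson limits of the number of shared cells. They do not hold the separate shares fixed and are thus too wide, so limits that span 1 do not show independence. *Cav2* had a UMI in 11.5% of PC5 cells with a *Cav1* UMI and 7.79% of the others, and in 21.1% and 17.2% in PC20. *Cav1* and *Gja1* were found together 0.98 times as often as their shares give in PC5 and 1.01 times in PC20, but for genes found in most cells this ratio can move little from 1. *Gja1* had a UMI in 65.5% of PC5 cells with *Cav1* and in 69.9% of those without, and in 55.1% and 53.0% in PC20. *Gja1* and *Gjc1* gave 1.05 (1.00 to 1.11) and 0.99. These are descriptions of cells of 1 library each, and in sparse counts such small differences between cells are no finding.

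The genes most like each expressed one over thinned cells were sought by Pearson's r of log2(UMI + 1), as a description of sparse counts in 1 library. In PC5 these were *Fbln2* (0.26), *Mgp* (0.25) and *Cryab* (0.23) for *Cav1*, among 7433 genes over 8847 cells. For *Cav2* they were *Cav1* (0.10) and *Fbln2* (0.07), for *Gja1* *Tcf4* (0.22), *Plod2* (0.21) and *Marcks* (0.19), and for *Gjc1* *Hmgb1* (0.19), *Ptma* (0.19) and *Pclaf* (0.18). In PC20, among 7296 genes over 4474 cells, they were *Vim* (0.22), *Tmsb4x* (0.20) and *S100a11* (0.20) for *Cav1*, *Emp1* (0.08), *Vcl* (0.07) and *S100a6* (0.07) for *Cav2*, and *Cenpa* (0.27), *Cenpf* (0.26) and *Hmmr* (0.26) for *Gja1*. The correlations were weak, and the lists of the 2 libraries named different genes for each of *Cav1*, *Cav2* and *Gja1*.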

How the data were processed

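Single cells of 1 PC5 and 1 PC20 culture were analysed, grouped by passage as labelled. The deposited values are UMI counts per gene and barcode, which the authors made with Cell Ranger 5.0 from droplet 3′ v3.1 libraries mapped to mm10 and did not normalize. No doublets were removed here and no doublet caller was run. The 8 genes and the gene lists were chosen with earlier results of these data known. UMIs were summed over kept cells as CPM, with a floor of 3 UMIs per library. Ratios need more than 3 UMIs in a library, and a ratio past 1 on the log2 scale counted as past the fold. For thinning, 10500 UMIs were drawn at random from each cell, a depth that about 10% of kept cells fell short of, in steps of 500. All 8 genes, and list genes with a UMI in at least 10% of cells of a library, were named, along with the 3 genes of highest correlation. Exceptions are marked in the text, and some genes that these rules name are not reported here. Positions are from GENCODE M21 on GRCm38, which held 30934 of 31053 identifiers. Alternatives were other cell filters, cells without proliferation markers, thinned cells, other scalings, a pseudocount and a lower detection minimum. Python 3.11.15, numpy 2.4.6, scipy 1.17.1 and pandas 2.3.3 were used. The interval calculation was tested on simulated Poisson counts, the law that the intervals assume. That test does not cover UMIs that cluster in cells, for which the limits are too narrow.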

Additional observations from a re-analysis of the deposited data

Results flagged for a closer look

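UMIs of 4 of the genes were also found in the barcodes that the cell filter left out, which no comparison above uses, at more than the 3 UMIs a count of 0 allows. The 679 PC5 barcodes left out held 99 *Cav1*, 7 *Cav2*, 76 *Gja1* and 15 *Gjc1* UMIs, or 107, 7.57, 82.2 and 16.2 CPM of the UMIs in those barcodes. The 135 PC20 barcodes left out held 16 *Cav1* and 15 *Gja1* UMIs, or 86.9 and 81.5 CPM. These values lay below the levels of the same genes in kept cells. They come from few UMIs and are given without limits, so no difference from kept cells is claimed.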

How the results depend on the processing

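No paired analysis was possible because each passage has 1 library, and for the same reason no replicate could be left out. A log2FC on means over cells with a pseudocount of 1 gave fewer genes past the fold. The counts were 0 in place of 2 of the 4 expressed genes among the 8, and 1 (*Cavin1*) in place of 7 caveola coat and neck genes. For the other connexins and pannexins the count was 0 in place of 1, and for all expressed genes 291 in place of 3891. By its construction this measure pulls low levels toward 0. The other connexins and pannexins also gave 0 of 1 expressed gene in cells with no *Mki67* or *Top2a* UMI. They gave 0 in thinned cells, where no gene of that list was counted as expressed. When a UMI in 1% of cells was enough, they gave 3 of 4 expressed genes, beside 5730 of 13539 over all genes. The *Gjb2* ratio, from 5 and 2 UMIs, turned to -1.505 in cells with no *Mki67* or *Top2a* UMI. *Cavin2* passed the fold there, at -1.07. In the alternatives without a pseudocount the log2 ratio stayed between 0.04 and 0.13 for *Cav1*, -1.10 and -1.01 for *Cav2*, 0.46 and 0.78 for *Gja1*, 6.39 and 6.87 for *Gja4*, and 2.17 and 2.48 for *Gjc1*. *Gja4* gave no ratio in cells with no *Mki67* or *Top2a* UMI, as PC20 held 0 of its UMIs there. The median expressed gene lay between -0.05 and 0.03 in all settings. Leaving out the 20 barcodes found in both libraries, an alternative chosen after seeing the data, left the counts of the 3 gene groups as they were and gave 3888 expressed genes past the fold. Depth limits *Cav3*, *Gjb2* and *Gjb6*, which had at most 23 UMIs in a library.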
